A study of Homo sapiens with 2 samples.

Results

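Small RNA genes of 3 kinds, miRNA, snoRNA and snRNA genes, were examined for open chromatin in CAMA-1, an established luminal breast cancer cell line that the labels describe as epithelial. Of the genes that GENCODE release 44 annotates on the 22 autosomes, 1155 of 1759 miRNA genes, 644 of 893 snoRNA genes and 1594 of 1800 snRNA genes lay more than 3 kb from every protein-coding transcription start site (TSS). The peaks described are those within 1 kb of the body of such a gene that were called in both replicates and shared at least 1 bp between them. They formed 796 regions out of the 215195 regions called in both replicates, of which 383 lay at miRNA genes, 120 at snoRNA genes and 300 at snRNA genes. Regions were shared between kinds at 2 loci for miRNA and snoRNA genes and at 5 loci for miRNA and snRNA genes. In peaks as deposited, the members were 821 of 245736 peaks in replicate 1 and 818 of 259745 peaks in replicate 2.

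Open chromatin was mapped by ATAC-seq, which sequences the DNA ends left where the Tn5 transposase inserts into open sites, in 2 biological replicates of untreated CAMA-1 cells grown on adherent dishes. These form the only condition, so no groups of samples were compared and no test between samples was possible. A peak carries a fold enrichment, the height of its stacked reads plus 1 over the genome-wide background plus 1, and the background was 3.35 stacked reads in replicate 1 and 3.52 in replicate 2. Peak heights ran from 11 to 1744 stacked reads in replicate 1 and from 11 to 1759 in replicate 2, and in these bulk libraries more cells with a region open and more cuts per cell cannot be told apart.

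The 3 kinds of gene make RNAs with different tasks. miRNAs are short RNAs, cut from a hairpin, that guide the silencing complex to messenger RNAs through their seed, the bases next to the 5′ end. snoRNAs guide the chemical modification of ribosomal and other RNAs, either as C/D box (SNORD) or H/ACA box (SNORA) RNAs, and most lie in introns of host genes and are processed from the host transcript. snRNAs form the spliceosome, and each has its own promoter with a proximal sequence element (PSE) upstream of the start. RNA polymerase III reads the U6 and U6atac genes, whose promoters also carry a TATA box, and RNA polymerase II reads the others. The genome also holds many copies of snRNA genes that arose by retrotransposition and mostly lack a promoter of their own.

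The promoters of snRNA genes are shown first because named snRNA genes and their copies differed more in peak calls than the 3 kinds of gene did. Each sequence is the 80 bases that end just before the annotated 5′ end, on the strand of the gene and read from hg38. Capitals mark the PSE core searched here, the letters ACC and AA with 8 bases between them, starting 45 to 75 bases upstream.
RNU1-1 (chr1:16514286-16514365, minus strand): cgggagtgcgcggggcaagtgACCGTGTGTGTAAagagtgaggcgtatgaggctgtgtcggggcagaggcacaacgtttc
RNU1-2 (chr1:16895900-16895979, plus strand): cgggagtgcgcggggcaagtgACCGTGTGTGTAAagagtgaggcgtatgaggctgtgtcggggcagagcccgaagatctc
RNU1-3 (chr1:16666949-16667028, minus strand): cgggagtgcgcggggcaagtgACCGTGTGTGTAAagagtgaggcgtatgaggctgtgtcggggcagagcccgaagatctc
RNVU1-27 (chr1:148522521-148522600, plus strand): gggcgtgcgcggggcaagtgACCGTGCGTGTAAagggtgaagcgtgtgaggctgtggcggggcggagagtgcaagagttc
RNU4-2 (chr12:120291904-120291983, minus strand): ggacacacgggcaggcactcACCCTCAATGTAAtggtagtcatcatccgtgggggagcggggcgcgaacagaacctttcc
RNU6-1 (chr15:67840046-67840125, minus strand): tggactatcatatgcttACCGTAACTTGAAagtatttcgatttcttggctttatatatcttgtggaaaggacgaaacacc
RNU6-7 (chr14:32201965-32202044, plus strand): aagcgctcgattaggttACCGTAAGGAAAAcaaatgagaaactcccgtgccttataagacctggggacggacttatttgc
RNU6ATAC (chr9:134164565-134164644, minus strand): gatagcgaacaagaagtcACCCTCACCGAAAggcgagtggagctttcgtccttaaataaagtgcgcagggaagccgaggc
RNU5E-1 (chr1:11908072-11908151, plus strand): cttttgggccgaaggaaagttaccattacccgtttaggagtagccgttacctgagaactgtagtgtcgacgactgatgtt
RNU6-450P (chr17:59847545-59847624, minus strand): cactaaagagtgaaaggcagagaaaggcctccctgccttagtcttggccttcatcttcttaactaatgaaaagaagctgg
The core began 59 bases upstream in the U1 genes RNU1-1, RNU1-2 and RNU1-3, and the 80 bases were the same in RNU1-2 and RNU1-3. RNU5E-1, which had the strongest peak of all snRNA genes, and RNU6-450P, a U6 copy with a strong peak, had no match to these letters in the window.

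A second set of sequences, from RefSeq on GRCh38.p14, gives mature miRNAs known in epithelial or breast cells whose genes had a peak in both replicates, with the seed (bases 2 to 8) in capitals. Their peaks were above the median fold enrichment of 11.5 at miRNA genes, except at MIR429. They are grouped by seed where genes shared one. The let-7 gene MIRLET7A3 encodes the same seed as let-7b-5p and is not shown, and its peak of 8.28 and 6.41 lay below that median. Of the 329 miRNA genes with a peak in both replicates, 288 were found in the RefSeq table. That search left out an autosome that is named with the processing below.
miR-200c-3p: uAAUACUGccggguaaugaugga
miR-429: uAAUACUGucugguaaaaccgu
miR-141-3p: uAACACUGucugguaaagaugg
let-7b-5p: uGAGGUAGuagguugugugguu
let-7i-5p: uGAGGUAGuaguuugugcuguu
miR-203a-3p: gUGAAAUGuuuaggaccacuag
miR-205-5p: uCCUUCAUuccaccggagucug
miR-375-3p: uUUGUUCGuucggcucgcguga
miR-21-5p: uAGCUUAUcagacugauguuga
miR-200c-3p and miR-429 had the seed AAUACUG, while the seed of miR-141-3p, AACACUG, differed from it, although the genes of miR-200c and miR-141 shared a single peak.

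The share of genes with a peak in both replicates was highest for miRNA genes. A shared peak was present at 329 of 1155 miRNA genes, or 28.5% (95% Wilson interval 25.96 to 31.2, counting error only). The share per replicate was 30.95% ± 0.796 (SD, n = 2). Of the 644 snoRNA genes, 116 had one, or 18.0% (15.2 to 21.2), with 19.8% ± 1.21 per replicate (SD, n = 2). Of the 1594 snRNA genes, 266 had one, or 16.7% (14.9 to 18.6), with 18.5% ± 0.532 per replicate (SD, n = 2). As a background, windows with a body of 100 bases were tiled over the autosomes every 2100 bases under the same rule, and 13.7% of 1170149 windows had a shared peak. Genes of the annotated type misc_RNA had one in 17.8% of 1736 cases. The interval of miRNA genes lay above those of snoRNA and snRNA genes, and the intervals of the latter overlapped each other and that of misc_RNA genes (16.1 to 19.7).

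The share fell with distance from protein-coding TSSs in each kind of gene and in the tiled windows. At 3 to 10 kb, 40.1% of 307 miRNA genes had a peak, against 21.6% of windows. At 10 to 50 kb the share was 28.4% of 409 miRNA genes against 17.4% of windows, and at 50 to 200 kb 23.3% of 318 against 12.3%. Beyond 200 kb it was 13.2% of 121 miRNA genes (8.31 to 20.4) against 6.04% of windows. At each of the 4 distances the whole interval of the miRNA genes lay above the share of windows. snoRNA genes had a share of 30.7% (23.4 to 39.2) at 3 to 10 kb and 23.3% (18.4 to 29.1) at 10 to 50 kb, above the windows. At 50 to 200 kb it was 8.76% (5.68 to 13.3) and beyond 4.69% (1.61 to 12.9), and these intervals held the shares of windows. snRNA genes had 21.6%, 19.3%, 13.8% and 3.79% at the same distances, against 21.6%, 17.4%, 12.3% and 6.04% of windows.

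**Figure D1:**
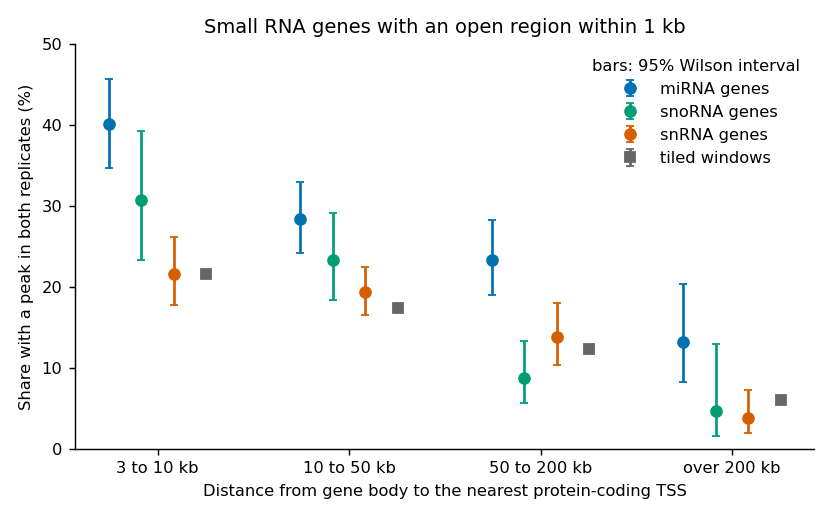
Share of genes (%) with a peak in both replicates within 1 kb of the body, by distance to the nearest protein-coding TSS, for miRNA, snoRNA and snRNA genes and for tiled windows, with 95% Wilson intervals as bars. miRNA genes lay above the windows at every distance, from 40.1% against 21.6% to 13.2% against 6.04%, while snRNA genes followed the windows.

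The base composition moved with these shares. The gene bodies with 1 kb on either side had a median GC content of 45.2% at miRNA genes, 40.9% at snoRNA genes and 40.4% at snRNA genes, against 39.4% in tiled windows. Among windows below 40% GC, 13.7% of 336 miRNA genes had a peak against 6.83% of tiles, and at 50% GC and above 44.9% of 385 miRNA genes against 38.9% of tiles. Between these, the miRNA share was 22.9% against 15.5% at 40 to 45% GC and 28.1% against 24.6% at 45 to 50% GC, and in the latter the interval of the miRNA genes (22.3 to 34.6) held the tile share. From the lowest to the highest GC class, snoRNA genes had shares of 8.59%, 22.8%, 32.6% and 24.5%. snRNA genes had 8.64%, 18.8%, 30.6% and 36.25%. In the highest class the snoRNA interval (16.9 to 34.05) lay below the tile share, whereas the snRNA interval (26.6 to 47.2) held it. In the lower classes the shares of both kinds were above those of tiles. However, the snoRNA interval held the tile share below 40% GC (5.89 to 12.4) and at 45 to 50% GC (23.9 to 42.7). The snRNA interval below 40% GC began at 6.84, next to the tile share of 6.83%. The part of GC content in the difference between miRNA genes and windows was not tested. Near the TSS of a long noncoding RNA (within 1 kb), 38.5% of 117 miRNA genes, 28.6% of 112 snoRNA genes and 47.6% of 42 snRNA genes had a peak, against 27.1% of windows. Farther from such a TSS the shares were 27.4%, 15.8% and 15.9%, against 13.5% of windows. The shares near such a TSS mix unlike genes. Of the 112 snoRNA genes, 65 had SNORD113 to SNORD116 symbols, and only 4 of all 122 genes with these symbols had a peak. Of the 42 snRNA genes, 28 were copies with a symbol that ends in P, and 9 of these had a peak (32.1%, 17.9 to 50.7).

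Peaks lay over the gene itself in a minority of cases. When the peaks of both replicates had to overlap the body, 9.70% of miRNA genes, 6.06% of snoRNA genes and 2.95% of snRNA genes had a peak, against 3.15% of windows.

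The median fold enrichment of the strongest peak per region was 11.5 in both replicates at miRNA genes, 10.0 and 10.9 in replicates 1 and 2 at snoRNA genes, and 12.1 and 12.6 at snRNA genes. Over peaks that overlapped the body, the median, as the mean of both replicates, was 16.8 at miRNA, 16.4 at snoRNA and 42.5 at snRNA genes. The other 156186 regions of the autosomes that lay more than 3 kb from coding TSSs had medians of 9.20 and 9.51, and the 31561 regions within 1 kb of a coding TSS had 19.1 and 19.7. Peaks near the TSS of a lncRNA were stronger, with medians of 34.5 and 33.8 over 53 regions at miRNA genes, 17.3 and 16.6 over 27 regions at snoRNA genes and 34.5 and 29.4 over 25 regions at snRNA genes. Among snRNA genes the strength depended on the kind of symbol. Regions at named genes, those with an RN symbol and no final P, had a median of 45.1 in both replicates over 34 regions and a median width of 1338 bp. Regions at the copies whose symbols end in P had a median of 11.5 in both replicates over 253 regions and a median width of 357 bp. Within the 300 bases at the midpoint of a region, the median number of CpG dinucleotides was 13 at named genes and 3 at copies.

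**Figure D2:**
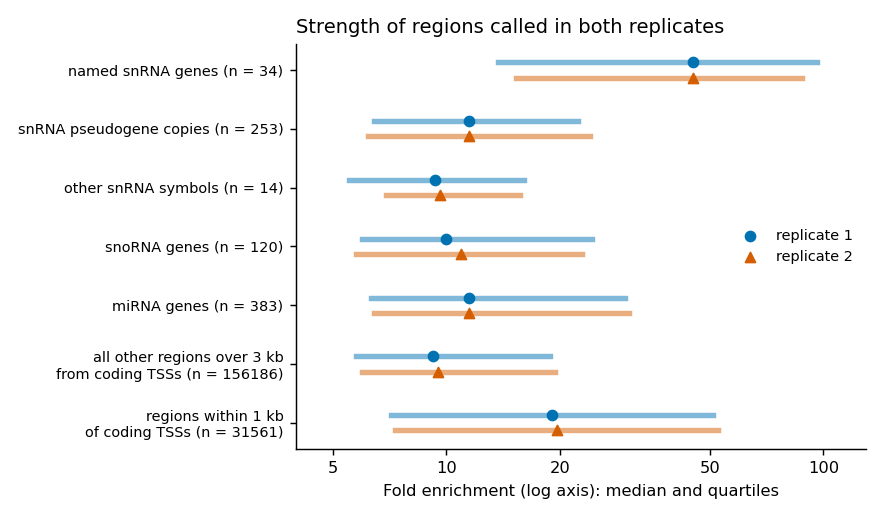
Median (symbols) and quartiles (bars) of the fold enrichment, on a log axis, for regions called in both replicates, by replicate and by kind of gene. Regions at named snRNA genes had a median of 45.1 in both replicates, above the 19.1 and 19.7 of regions within 1 kb of coding TSSs, whereas regions at miRNA, snoRNA and pseudogene snRNA genes had medians from 10.0 to 11.5.

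Named snRNA genes and their copies differed in how often they had a peak. Of the 42 named genes, 28 had a peak in both replicates, or 66.7% (51.6 to 78.99), whereas 226 of the 1490 copies had one, or 15.2% (13.4 to 17.1). The difference was 51.5 percentage points, with 52.4 in replicate 1 alone and 49.2 in replicate 2 alone. The share of copies was close to the 13.7% of tiled windows, and it was 20.6%, 17.5%, 11.5% and 3.05% at the 4 distances, against 21.6%, 17.4%, 12.3% and 6.04% of windows. Within 1 kb of a lncRNA TSS, 10 of 11 named genes had a peak, and farther away 18 of 31 had one. The 62 snRNA genes with other symbols, such as U6 or U2 without a copy number, had a peak in 12 cases, or 19.4% (11.4 to 30.85).

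The position of the peaks also set the named genes apart. At the annotated 5′ end, 52.4% of named genes were covered by a peak in both replicates, and the cover was highest 300 bases downstream, at 57.1%. At 5 kb upstream it was 2.38%. Among the copies the cover at the 5′ end was 1.07%, lower than the 4.16% at 5 kb upstream and the 2.49% of tiled windows. miRNA genes had 8.74% at the 5′ end, 5.19% at 2450 bases upstream and 7.62% at 5 kb upstream. snoRNA genes had 3.88% at the 5′ end and 4.35% at 5 kb upstream. Neither kind had a peak of cover at its 5′ end of the height seen at named snRNA genes. The rule keeps coding TSSs more than 3 kb from the gene body, so cover at 5 kb can include their peaks. In tiled windows cover at 5 kb upstream was 3.01%.

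**Figure D3:**
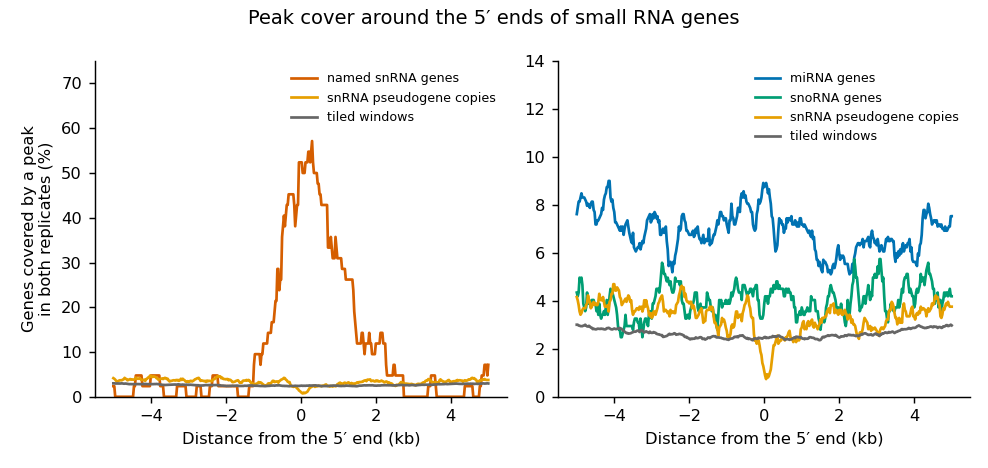
Share of genes (%) covered by a peak in both replicates at each distance (kb) from the annotated 5′ end, with named snRNA genes and snRNA pseudogene copies on the left, and miRNA and snoRNA genes with the same copies on the right, each beside tiled windows. Cover rose to 57.1% at named snRNA genes and was 1.07% at the 5′ end of the copies.

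The strongest peak lay at a gene of U5, which holds the exons in the spliceosome. RNU5E-1 (chr1:11908152-11908271, in a lncRNA gene) had a fold enrichment of 244 in replicate 1 and 225 in replicate 2, from heights of 1060 and 1018 stacked reads, with exact Poisson 95% limits of 997 to 1126 for the former. It was the strongest peak among the 3 kinds of gene in both replicates. RNU5B-1 had 104 and 90.2, RNU5A-1 72.7 and 69.7, and RNU5D-1 59.1 and 50.4, so all 4 U5 genes that met the rule had a peak over the body. The U4 genes RNU4-1 and RNU4-2 shared 1 peak of 69.5 and 74.7. Of the U6 genes, RNU6-7 and RNU6-8 shared a peak of 46.7 and 47.3, RNU6-1 had 39.3 and 50.4, and RNU6V had no peak. The shared peak lay over the body of RNU6-7 but 799 and 809 bp from that of RNU6-8. The RNU6-1 peak lay 755 bp from the body in both replicates. RNU6ATAC, the U6 counterpart of the minor spliceosome, had 83.5 and 73.2.

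U1, which recognises the 5′ splice site, is encoded by many near-identical genes, and 18 of its 30 named genes had a peak in both replicates. RNVU1-27 had the highest U1 value, 144 in replicate 1 and 145 in replicate 2, followed by RNVU1-21 with 143 and 142 and RNVU1-14 with 128 and 123. RNU1-2 had 91.6 and 80.7, and RNU1-1 48.1 and 42.9. At the low end, RNVU1-1 had 3.22 and 4.42, RNVU1-2A 6.21 and 5.53, RNVU1-23 6.21 and 6.85, and RNVU1-32 8.97 and 11.3. These 4 peaks lay beside the gene, 78 bp or more from the body in each replicate, whereas at 13 of the 18 U1 genes the strongest peak lay over the body in replicate 1. A gap lay between RNVU1-32 and the next gene, RNVU1-2, which had 34.5 and 28.1.

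Many of the U1 genes and RNU2-1 lay in sequence that occurs more than once in the genome. Within 1 kb of the body, the median share of 100-base words that occur once in hg38 was 98.8% at the 28 named snRNA genes with a peak and 60.6% at the 14 without one. It was 0% at RNU1-3 and 31.9% at RNU2-1, neither of which had a peak in either replicate, and it was under 50% at 6 of the 14 genes without a peak and at 2 of the 28 with one. However, RNVU1-17, RNVU1-33, RNVU1-8 and RNU6V had 100% and were not called in both replicates. Because reads from identical copies cannot be assigned to one of them, the values of single U1 genes are uncertain, and the part of the repeats in the missing calls was not tested. Over genes with at least 50% of words unique, 26 of 34 named genes and 224 of 1447 copies had a peak, or 76.5% and 15.5%.

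**Figure D4:**
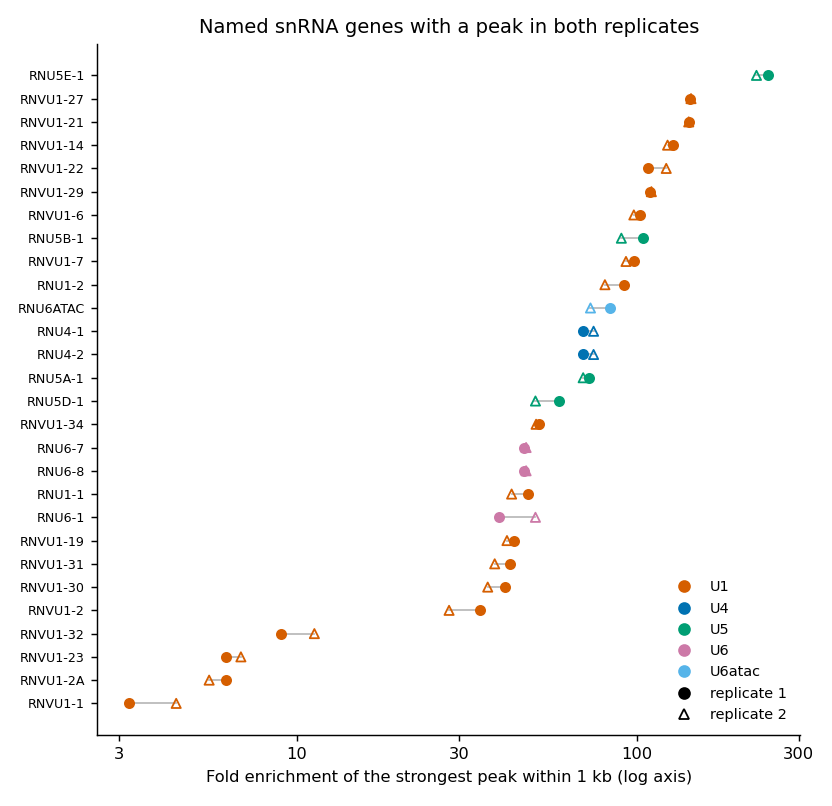
Fold enrichment, on a log axis, of the strongest peak within 1 kb of each of the 28 named snRNA genes with a peak in both replicates, with replicate 1 as filled circles and replicate 2 as open triangles, coloured by class. RNU5E-1 stands highest at 244 and 225, and 4 RNVU1 genes lie at the low end, up to 8.97 and 11.3 at RNVU1-32.

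Of the 23 snRNA genes listed as functional in splicing or histone processing, 14 met the rule. Of these, 12 had a peak in both replicates, and RNU1-3 and RNU2-1 did not. RNU1-4, RNU5F-1, RNU6-2, RNU6-9, RNU7-1, RNU11, RNU12 and RNU4ATAC lay within 3 kb of a coding TSS and were outside the rule, and RNU2-2 was not found under this symbol in GENCODE 44.

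The PSE core was found upstream of 33 of the 42 named snRNA genes, or 78.6%, of 52 of the 1490 copies, or 3.49%, and of 16 of the 62 genes with other symbols, or 25.8%. In windows of the same position in a regular subset of the tiles, 3.03% of 117015 held it. The PSE core and TATA were searched on the strand of the gene. TATA starting 20 to 35 bases upstream was found at 3 of the 4 named U6 genes but not at RNU6ATAC. It was found at 0 of the 37 named genes of classes other than U6 and U6atac, at 10.7% of copies and at 7.72% of tiles. The octamer word ATGCAAAT, on either strand 150 to 300 bases upstream, was found at 8 named genes, or 19.05%, against 1.54% of copies and 1.53% of tiles. Among named genes, 12 of the 14 without a peak and 21 of the 28 with one had the core. Among the copies, 15 of the 52 with the core had a peak, or 28.8% (18.3 to 42.3), against 211 of the 1438 without it, or 14.7% (12.9 to 16.6). These matches are descriptions of the letters and no evidence of binding.

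Strong peaks were not limited to named snRNA genes. Among the 6 snRNA genes with the best mean rank of fold enrichment, RNU7-54P, a copy of the U7 gene, had 140 and 129 with a peak 122 bp from the body in replicate 1, and RNU6-450P had 127 and 121. RNU6-450P lies downstream of MIR21 on chromosome 17, and in replicate 2 a single peak of 6191 bp served both genes, whereas replicate 1 had a peak of 674 bp at RNU6-450P and one of 5374 bp near MIR21. The strongest peak overlapped the body in both replicates at 20 of the 226 copies with a peak, or 8.85%, compared with 21 of the 28 named genes, or 75%.

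Among miRNA genes, 4 of the 6 with the best mean rank lay within a coding gene. MIR5093 (chr16:85306226-85306325), within GSE1 on the opposite strand, had 163 in both replicates from heights of 708 and 738. MIR2116, in MYO1E, had 146 and 156, MIR3150A, in NDUFAF6, had 161 and 152, and MIR3935, in GNAO1, had 137 and 149. MIR4449 and the H/ACA snoRNA gene SNORA26 lie in DANCR, a long noncoding RNA gene, and shared a peak of 146 and 152. MIR5087 shared its peak of 143 and 142 with the U1 gene RNVU1-21. At each of the 6 genes except MIR3935, the strongest peak lay over or within 83 bp of the hairpin in both replicates. At MIR3935 it lay 196 and 282 bp away.

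miRNA genes known from epithelia, where they hold back the transition to a mesenchymal state, mostly had a peak. Of 8 such genes, 6 had a peak in both replicates (75%), beside 28.5% of all miRNA genes. This share was not particular to epithelial genes, since 4 of 5 fibroblast and smooth muscle genes (80%) also had one. MIR203A, known from squamous epithelium, and MIR203B lie on opposite strands of the same site and shared a peak of 86.5 and 95.3 over the hairpins. MIR200C and MIR141 shared a peak of 66.96 and 61.5 in MIR200CHG, 340 bp from the MIR200C hairpin in replicate 1. MIR205 had 43.9 and 51.5, and MIR429, on chromosome 1, had 10.1 and 7.96. Its neighbours MIR200B and MIR200A, in the same cluster, each had a peak within 1 kb in a single replicate, and so were not called. MIR375, known from endocrine and luminal cells, had 74.1 and 74.7 over the hairpin, and MIR21, which is abundant in many carcinomas, had 119 and 121 from a peak 632 bp from its hairpin in replicate 1.

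Peaks were also found at some miRNA genes known from other tissues, in small lists that are read beside the 28.5% of all miRNA genes. Of the muscle genes, 2 of 6 had a peak (33.3%), MIR133B with 13.1 and 12.6 and MIR1-1 with 5.52 and 5.75. Of the brain genes, 3 of 8 had one (37.5%), and neither share was far from that of all miRNA genes. MIR124-3 was the strongest with 29.5 and 26.5, and MIR9-1 and MIR124-2 had 7.36 and 6.41, and 10.4 and 7.52. Of the 3 blood genes that met the rule, 2 had a peak (66.7%), MIR155 with 15.2 and 11.7 and MIR150 with 8.05 and 9.73. MIR122, the liver miRNA, the 3 pluripotent genes MIR371A, MIR372 and MIR373, and all 42 genes of the chromosome 19 cluster, expressed in the placenta, had no peak in both replicates. Of the 5 fibroblast and smooth muscle genes, 4 had one (80%), a share above the 75% of the epithelial list. The values were 34.7 and 36.0 at MIR145, 17.5 and 13.05 at MIR143, 11.04 and 12.2 at MIR199A1 and 6.90 and 7.08 at MIR214. MIR126, known from endothelium, had 15.2 and 20.1. The cell line holds a single cell type by its labels, and the sources of the peaks at genes of other tissues were not tested.

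**Figure D5:**
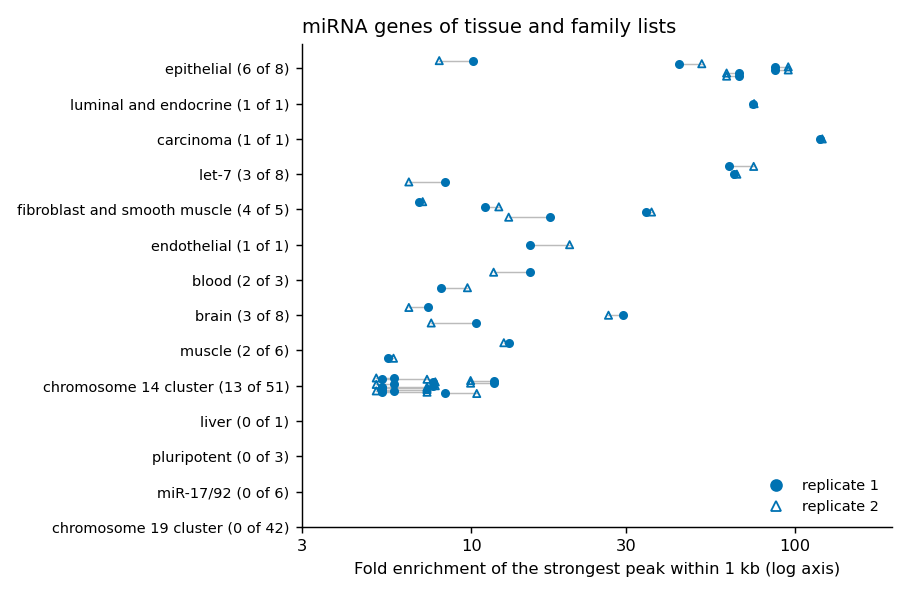
Fold enrichment, on a log axis, of the strongest peak within 1 kb of miRNA genes from tissue and family lists, with 1 pair of symbols per gene with a peak in both replicates (circles for replicate 1, triangles for replicate 2) and, in parentheses, how many of the genes under the rule had one. MIR21 stands highest at 119 and 121, MIR375 lies at 74.1 and 74.7, and genes of the chromosome 14 cluster lie between 5.09 and 11.7.

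Of the 8 let-7 genes that met the rule, 3 had a peak (37.5%, beside 28.5% of all miRNA genes). MIRLET7I had 62.4 and 74.5, MIRLET7B 64.7 and 66.1 and MIRLET7A3 8.28 and 6.41, and the other 5 had no shared peak within 1 kb. None of the 6 genes of the miR-17/92 cluster on chromosome 13 had a peak in either replicate, which concerns the hairpins and not the promoter of their host. Of the 51 genes of the imprinted chromosome 14 cluster, 13 were called (25.5%, beside the same 28.5%), from 5 regions, with fold enrichments from 5.09 to 11.7. By symbol, 36.6% of the 213 genes with a number below 500 or a let-7 name had a peak, against 16.6% of the 217 numbered from 500 to below 1000 and 29.8% of the 708 with higher numbers.

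Genes with a peak that share a seed were also counted. Across the 288 miRNA genes with a peak and a RefSeq mature sequence, 43 seeds occurred in more than 1 gene. Genes of the autosome left out of the search are missing from this count. Shared seeds were not counted over all miRNA genes. The count therefore does not show whether genes with a peak share seeds more often than others. The following families were chosen after their values were seen, and their mature sequences (RefSeq, GRCh38.p14) are shown with the seed in capitals because each seed is encoded at more than 1 locus with a peak.
miR-23a-3p: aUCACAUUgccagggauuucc
miR-23b-3p: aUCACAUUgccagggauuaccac
miR-27a-3p: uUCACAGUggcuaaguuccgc
miR-27b-3p: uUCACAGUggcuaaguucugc
miR-130b-3p: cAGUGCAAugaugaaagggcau
miR-301b-3p: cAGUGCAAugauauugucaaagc
miR-454-3p: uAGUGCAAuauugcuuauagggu
miR-193a-3p: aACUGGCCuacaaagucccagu
miR-193b-3p: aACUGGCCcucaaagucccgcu
MIR23A, MIR27A and MIR24-2 on chromosome 19 lay within a single peak of 82.4 and 89.999 in MIR23AHG. Their counterparts MIR23B, MIR27B and MIR24-1 on chromosome 9, in AOPEP, had a peak of 23.9 and 32.5. MIR130B and MIR301B shared a peak of 35.9 and 41.8 on chromosome 22, and MIR454 on chromosome 17, with the same seed, had 8.97 and 15.5. MIR193A had 35.2 and 39.1, and MIR193B had 52.7 and 59.9. MIR132 and MIR212, whose 3p seeds were also the same, shared a peak of 21.4 and 23.2.

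snoRNA genes differed by box and by array. Of the H/ACA genes, 38 of 119 had a peak, or 31.9%, against 28 of 191 C/D genes, or 14.7%, beside 18.0% of all snoRNA genes. The other 334 snoRNA genes, which have neither a SNORA nor a SNORD symbol, had a peak in 14.97% of cases. Most C/D genes had symbols of 4 families, SNORD113, SNORD114, SNORD115 and SNORD116, whose arrays lie in imprinted loci on chromosomes 14 and 15. Of their 122 genes, 4 had a peak, or 3.28% (1.28 to 8.13), with 1 of the 50 SNORD115 copies, 0 of the 33 SNORD116 copies, 0 of the 9 SNORD113 copies and 3 of the 30 SNORD114 copies. Of the 69 C/D genes with other symbols, 24 had a peak, or 34.8% (24.6 to 46.6), a split that was chosen after the counts were seen. Genes were assigned to the arrays by symbol and not by position, so entries without a copy number may lie elsewhere.

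Of the 6 snoRNA genes with the best mean rank, 3 lay in lncRNA genes. SNORA26 had 146 and 152 (DANCR), SNORA9 had 90.4 and 97.3 (SNHG15), and SNORA50C and SNORD104 shared a peak of 85.4 and 90.7 (SNHG25). Of the other 3, the gene with only the Ensembl identifier ENSG00000238761, on chromosome 1, had 164 and 155, a gene annotated as U3 within TEX14 on chromosome 17 had 122 and 120, and SNORA80C, in ZNF771, had 111 and 112. Of the 119 snoRNA genes in a host whose name begins with SNHG, 28 had a peak, or 23.5% (16.8 to 31.9), with median fold enrichments of 44.9 and 43.6, while 88 of the other 525 had one, or 16.8% (13.8 to 20.2), with medians of 11.7 and 13.2. Among the former, SNORA44 and SNORA16A shared a peak of 74.6 and 98.6 in SNHG12. The split by SNHG host was chosen after the peaks were seen. It was made apart from the split by array, so array genes with an SNHG host were not taken out. Their part in the share at SNHG hosts was not counted.

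Genes with SNORD3 symbols encode U3, which acts in the cutting of the ribosomal RNA precursor. Together with the SNORD13 family, they had a peak in 7 of 12 cases, from 5 regions, beside 18.0% of all snoRNA genes. Genes annotated only as U3, such as the one within TEX14, were not in this list. The 7 include the pseudogenes SNORD3P1 and SNORD13P3, and both SNORD13 itself and the U8 gene SNORD118 lay outside the rule. SNORD3A, SNORD3D, SNORD3B-1 and SNORD3B-2 on chromosome 17 were among them, with 10.1 and 7.52 at SNORD3A, 38.4 and 35.6 at SNORD3D, and a peak of 36.1 and 39.4 shared by the other two. SNORD3D has 2 overlapping entries in GENCODE 44, both of which are counted. Of the 10 GAS5 snoRNA symbols, 8 were not annotated as snoRNA genes in this release, and the 4 genes found under the other symbols had no peak. Of the SNHG1 list, 1 gene met the rule, SNORD29, which had no peak.

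Calls that depended on a single replicate were few and mostly weak. A peak within 1 kb in only one replicate was found at 20 miRNA genes in replicate 1 and 33 in replicate 2. The counts were 6 and 17 for snoRNA genes and 22 and 34 for snRNA genes, with median fold enrichments from 4.42 to 5.09. The highest value among these was 70.3 at RNU6-581P in replicate 2, and the highest in replicate 1 was 42.3 at RNU6-929P, while among miRNA genes MIR935 had the highest, 32.1 in replicate 2. Just outside the rule, MIR935 had its shared region 1004 bp from the body, SNORA71D 1028 bp and RNU6-933P 1013 bp, whereas MIR3148 at 991 bp, the snoRNA gene ENSG00000207410 at 997 bp and RNU1-91P at 995 bp were just inside it. MIR935 and SNORA71D were among the genes with a peak within 1 kb in replicate 2 only. A gene in those counts thus need not lack a nearby peak in the other replicate. For regions called in both replicates, fold enrichments differed by more than 2-fold between replicates in 3 of 796 regions. At a single gene the values could differ more, as at MIR148A, chosen after its values were seen, where the peak within 1 kb had 5.29 in replicate 1 and 63.2 in replicate 2.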

How the data were processed

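ATAC-seq peaks of 2 biological replicates of CAMA-1 were used. According to the submitters' processing notes, the tools were Trim Galore 0.6.5, Bowtie2 2.3.5.1 and MACS2 2.2.6 on hg38. The files hold peaks called in each replicate separately. Caller settings and the handling of duplicate and multi-mapped reads are not given in the sources used here. Each deposited peak has a score (10 times the −log10 q-value), a fold enrichment, which is a ratio to the genome-wide background, the −log10 p-value and the −log10 q-value, as the authors' peak caller gave them. No peak had a −log10 q below 2.24 (replicate 1) or 2.07 (replicate 2). Library totals were not used here, and the precision given rests on the peak heights.

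The fold enrichments lay on a ladder with steps of 0.230 (replicate 1) and 0.221 (replicate 2), and the step gave heights and background. Genes came from GENCODE 44. Mature miRNA sequences and seeds were not taken for genes on chromosome 8, where 21 of 56 miRNA genes had a peak in both replicates. A gene counted as called when a peak of each replicate lay within 1 kb of its body and the 2 peaks shared at least 1 bp. Windows with a body of 100 bp, tiled every 2100 bp, served as background. Shares have Wilson intervals and heights exact Poisson intervals at 95%. Reads carry no molecular identifiers, so these cover counting error only. With 1 condition there was no test between groups, and genes and peaks were not treated as replicates. Word uniqueness was counted over 100-base words of hg38 on both strands.

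The genes named singly are the 6 per kind with the best mean rank of fold enrichment, the named snRNA genes with a peak or on the list of functional genes, and the members of fixed miRNA and snoRNA lists with a peak. The members and lists were chosen with earlier results of these data known. The counting steps were tested on simulated data. Python 3.11.15, numpy 2.4.6, pandas 2.3.3, scipy 1.17.1 and pysam 0.24.0 were used. Other distances, a stricter q, reciprocal overlap, chromosome X and single replicates were tried as alternatives.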

Additional observations from a re-analysis of the deposited data

How the results depend on the processing

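The difference between named snRNA genes and copies kept its direction under all 12 other settings tried. Of the 81 values under other settings, shares and medians included, 22 moved by less than the SD between the replicates. Medians expressed as heights, which are in other units, were counted as moved. For the median at miRNA genes this SD was 0.00427, so very small moves also counted. The tally is therefore no measure of how firm the values are. The shares of miRNA, snoRNA and snRNA genes were 9.70%, 6.06% and 2.95% when peaks had to overlap the body, 20.9%, 12.3% and 10.7% within 500 bp, and 39.4%, 26.1% and 27.7% within 2 kb, which by construction takes in fewer or more peaks. They were 39.97%, 26.2% and 18.2% with no minimum distance from coding TSSs, 24.3%, 14.9% and 15.2% at a minimum of 10 kb, and 24.8%, 15.2% and 13.2% with a −log10 q of at least 10. The miRNA share was 27.01% with a reciprocal overlap of 50%, and 27.1% with chromosome X added, where the snRNA share was 16.1%. In single replicates, where a peak needed no partner, the shares ran from 30.4% to 31.5%, 18.9% to 20.7% and 18.1% to 18.9%.

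The median fold enrichments, in the same order of kinds, were 16.8, 16.4 and 42.5 over the body and 12.3, 11.3 and 13.7 within 500 bp. Within 2 kb they were 10.4 at miRNA and 11.4 at snRNA genes. They were 14.996, 11.3 and 13.4 with no minimum distance from TSSs, 10.4 at miRNA and 9.13 at snoRNA genes at 10 kb, and 15.2, 14.7 and 16.6 with the stricter q. At miRNA genes the median was 12.01 with reciprocal overlap and 10.9 with chromosome X. In single replicates the medians ran from 9.07 to 9.43, 7.74 to 9.43 and 9.07 to 10.6. Expressed as heights, they were 50, 45.5 and 53.8 stacked reads. The causes of the moves in the medians were not tested.

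The difference between named snRNA genes and copies was 44.9 percentage points within 2 kb, 54.1 with no minimum distance from TSSs, and 49.2 to 52.4 in single replicates. In alternatives chosen after seeing the data, it was 68.5 without the U1 class and 61.0 over genes with at least 50% of words unique, where the miRNA share was 29.5%. No paired analysis was possible because the series has a single condition. Peak lists hold no values at genes without a call, which limits what a missing call shows.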
